A study of Mus musculus with 2 samples.

Results

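The genes described here are the Hox genes of the mouse, taken as every gene whose symbol consists of Hox, a cluster letter from a to d and a number. The rule found 39 members among the 26100 genes listed for both libraries, and every member had a position in the annotation. The members lie in 4 clusters. Cluster A holds 11 members on chr6:52155590-52260880, cluster B holds 10 on chr11:96194316-96368256, cluster C holds 9 on chr15:102921103-103036852 and cluster D holds 9 on chr2:74668310-74765142 (GENCODE M21, GRCm38).

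Hox genes encode homeodomain transcription factors that give cells their position along the head to tail axis and along the limb. Members with the same number in different clusters are paralogs, and low numbers are used towards the head while high numbers are used towards the tail and, in clusters A and D, towards the tip of the limb. Fibroblasts and muscle precursors taken from the body are known to keep part of the Hox code of the place they came from. In what follows, paralog groups 1 to 3 are called anterior, 4 to 8 central and 9 to 13 posterior.

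The study made droplet single-cell RNA libraries from 2 mouse cultures, with a molecular barcode (UMI) on every RNA that was caught. MEF cells are embryonic fibroblasts of the mouse, kept in MEF medium. iMPC cells are induced myogenic progenitors, produced from fibroblasts with the muscle regulator MyoD together with a treatment abbreviated F/R/C, and held in medium with F/R/C. Both cultures carried the genotype Tg:Pax7-nGFP/C57BL6;DBA2, a reporter of the satellite cell gene Pax7. The series' design text speaks of a stable iMPC clone, so the iMPC cells may descend from 1 founder, while the MEF culture is a mixture. A difference between the libraries and a difference between the founder and the average fibroblast therefore cannot be told apart. Each culture gave 1 library, so no test was made and no p-value is given. The intervals given are exact, at 95%, and reflect counting error alone.

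There were 6043 MEF cells with at most 20% mitochondrial UMIs, with a median of 18929 UMIs each, and 9349 iMPC cells with at least 8036 UMIs, with a median of 20846. Within iMPC, 4 classes were formed by the UMIs of their marker genes. The Pax7-positive class (at least 1 Pax7 UMI and no UMI of the differentiation factor Myog) held 2180 cells. The Myog-high class (at least 5 Myog UMIs and at most 1 UMI of muscle creatine kinase, Ckm) held 1724, the Ckm-high class (at least 5 Ckm UMIs) held 1037 and the Dcn-high class (at least 5 UMIs of the fibroblast proteoglycan decorin, Dcn) held 553. The Dcn-high class shared 110 cells with the Pax7-positive class, 18 with the Myog-high class and 18 with the Ckm-high class, and 4001 iMPC cells fell in no class. Of 9 satellite cell and muscle markers, the sum was 2.82 CPM (UMIs of a gene scaled to a fixed library total) in MEF, with 2 markers at 0, and 7839 CPM in iMPC. The sum of 8 fibroblast markers was 6411 CPM in MEF and 985 CPM in iMPC, so both labels matched their markers. Of the cell barcodes, 16 occurred in both libraries, 0.265% of the MEF cells.

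Sequence upstream of the start site is shown for 4 members on which the comparison turned. Hoxd8 and Hoxd9 stayed near their MEF level over all iMPC cells together, though not in Pax7-positive or Dcn-high cells. Hoxd13 and Hoxa13 are a far posterior pair with under 0.1 CPM in iMPC. Each sequence is the 250 bases before the start, from RefSeq (GRCm38.p6), written 5′ to 3′ on the gene's strand with every CG in capitals.
Hoxd8, chr2:74704365-74704614, plus strand: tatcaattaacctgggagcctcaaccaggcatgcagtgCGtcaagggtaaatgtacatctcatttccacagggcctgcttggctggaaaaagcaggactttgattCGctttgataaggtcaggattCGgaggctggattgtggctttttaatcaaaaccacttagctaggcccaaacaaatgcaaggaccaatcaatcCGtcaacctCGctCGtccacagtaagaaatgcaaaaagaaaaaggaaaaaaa
Hoxd9, chr2:74697513-74697762, plus strand: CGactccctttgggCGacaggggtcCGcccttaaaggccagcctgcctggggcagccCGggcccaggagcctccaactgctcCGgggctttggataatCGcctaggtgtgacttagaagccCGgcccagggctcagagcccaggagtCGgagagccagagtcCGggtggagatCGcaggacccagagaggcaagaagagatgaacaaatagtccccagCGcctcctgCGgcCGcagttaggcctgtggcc
Hoxd13, chr2:74667975-74668224, plus strand: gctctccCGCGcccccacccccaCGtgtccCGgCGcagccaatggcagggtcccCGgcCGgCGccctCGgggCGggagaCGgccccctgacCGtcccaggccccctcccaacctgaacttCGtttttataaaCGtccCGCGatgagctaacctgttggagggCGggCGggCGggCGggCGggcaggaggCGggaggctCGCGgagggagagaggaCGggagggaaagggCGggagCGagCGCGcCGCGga
Hoxa13, chr6:52260881-52261130, minus strand: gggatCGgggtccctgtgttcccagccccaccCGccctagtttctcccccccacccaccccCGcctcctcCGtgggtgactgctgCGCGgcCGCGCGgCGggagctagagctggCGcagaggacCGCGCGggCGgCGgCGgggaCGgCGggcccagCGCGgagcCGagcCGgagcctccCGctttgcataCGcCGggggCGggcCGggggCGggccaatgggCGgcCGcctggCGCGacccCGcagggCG
The CG counts were 6 for Hoxd8, 13 for Hoxd9, 31 for Hoxd13 and 35 for Hoxa13, against a median of 6 over all 32851 promoter windows of this length and 12.5 over the 24 windows of the 22 members with an entry. The CG count did not follow the paralog group among the members with an entry. The Hoxd12 window held 10, those of Hoxd11 held 2 and 20, that of Hoxd10 held 20 and that of Hoxa5 held 28. The motif CAGCTG, the E-box bound by MyoD, was in none of these 4 windows, in 12.5% of the members' windows and in 13% of all windows. CACGTG was in the Hoxd13 window, in 16.7% of the members' windows and in 6.02% of all. Each of these motifs reads the same on both strands. Windows of Hoxa4, Hoxb2, Hoxb3, Hoxb5, Hoxb6, Hoxb7, Hoxb9, Hoxb13, Hoxc5, Hoxc6, Hoxc8, Hoxc9, Hoxc10, Hoxc11, Hoxc12 and Hoxc13 were not used here.

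MEF cells carried a broad Hox program that was weighted to the trunk. The 39 members together made up 777 CPM (772 to 782). Cluster C gave 49.3% of these UMIs and cluster B 39.9%, while cluster D gave 6.0% and cluster A 4.77%. At least 2 CPM was reached by 23 members and at least 10 CPM by 15. Hoxc8, a central gene of thoracic vertebrae and brachial motor neurons, was the highest at 186 CPM (184 to 189), followed by Hoxc6 at 97.4 CPM and Hoxb9 at 76.2 CPM, both also genes of the thoracic region. Hoxc9 stood at 62.8 CPM and Hoxb2, which patterns the hindbrain, at 50.9 CPM. These 5 genes held 60.9% of all Hox UMIs in MEF. In the 3′ assay the level of a gene also depends on how well its transcript end is captured and annotated, so the order of different genes is less sure than the ratio of 1 gene between groups.

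In iMPC cells the summed Hox level was 189 CPM (187 to 190.3), which was 4.12-fold lower than in MEF (log2 ratio −2.04, −2.06 to −2.03). Among the 25 members that reached 2 CPM in either library, 19 were at least 2-fold lower in iMPC, while 22.5% of all genes were. Only Hoxa4 of these 25 was at least 2-fold higher, against 16.8% of all genes. The median log2 ratio was −2.07 over the 25 members and −0.17 over all 11844 genes tested. Scaling by the median of gene ratios instead of by total UMIs moves every iMPC to MEF log2 ratio by 0.14.

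Over all iMPC cells together, the size of the difference depended on the cluster. Cluster C was 383 CPM in MEF and 63.7 CPM in iMPC, 6.02-fold lower (log2 −2.59, −2.62 to −2.56). Cluster B was 310.3 CPM and 79.9 CPM, 3.89-fold lower (log2 −1.96, −1.98 to −1.93). The intervals of these log2 ratios did not overlap with each other or with those of clusters A and D. Cluster A was 37.1 CPM and 18.7 CPM (log2 −0.99, −1.05 to −0.93) and cluster D was 46.7 CPM and 26.3 CPM (log2 −0.83, −0.88 to −0.77). The cluster D sum was mostly Hoxd8 and Hoxd9, which together were 29.1 CPM in MEF and 23.6 CPM in iMPC. Its other members were not spared as a group, with Hoxd4 4.74-fold lower and groups 10 to 13 of cluster D 17.3-fold lower (5.89 and 0.339 CPM). Cluster C thereby took 49.3% of Hox UMIs in MEF and 33.8% in iMPC, and cluster D 6.0% and 13.95%. The shares of anterior members (10.9% in MEF and 10.7% in iMPC) and of central members (65.8% in both) were close to each other, and group 9 took 19.0% and 22.4%, so these 3 sums were lower by similar factors. The order of the clusters differed between classes. In Dcn-high cells clusters A, B, C and D were 2.99-, 2.94-, 6.14- and 3.32-fold lower than in MEF. In Pax7-positive cells they were 17.1, 104.9, 84.0 and 13.3 CPM, and in Ckm-high cells 19.3, 49.1, 36.5 and 42.5 CPM.

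**Figure D1:**
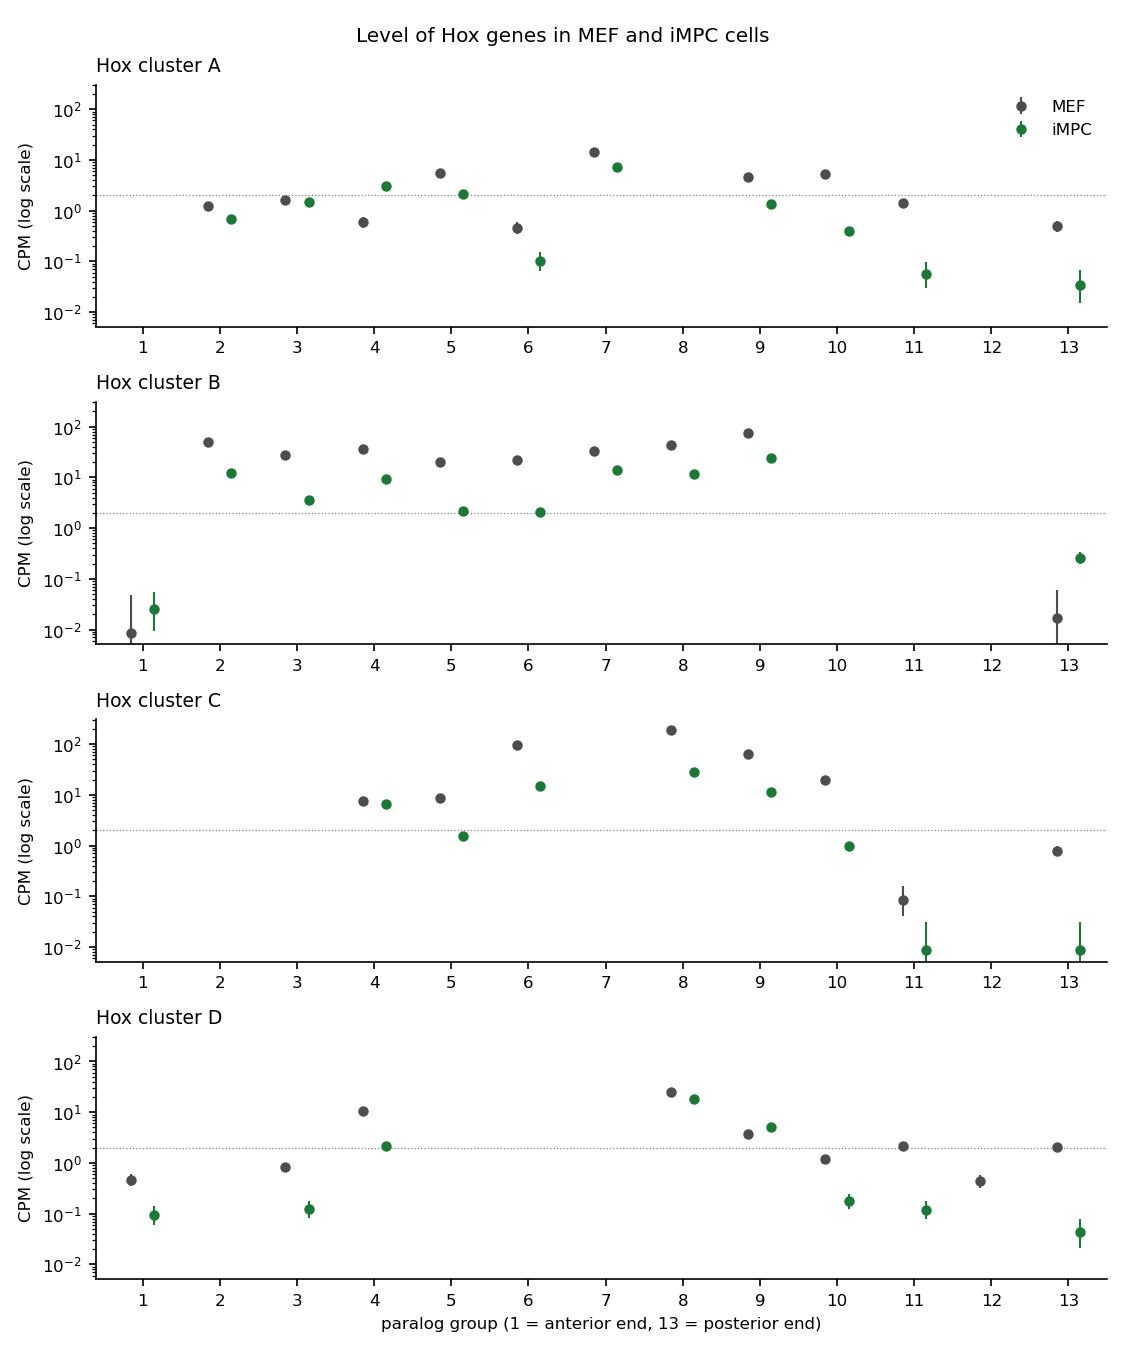
CPM of 38 Hox genes on a log scale in MEF (grey) and iMPC (green) cells, by cluster and paralog group. Points are sums over all cells of 1 library, bars are exact 95% Poisson intervals, the dotted line marks 2 CPM, and members with 0 UMIs are not drawn. In cluster C the gap is wide from group 5 onwards (Hoxc8: 186 against 28.4 CPM), while Hoxd8 and Hoxd9 sit close together in cluster D.

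The 5 most abundant members of MEF were between 3.14-fold (Hoxb9) and 6.65-fold (Hoxc6) lower in iMPC. Hoxc8 was 28.4 CPM in iMPC (27.7 to 29.0), 6.58-fold below MEF, and Hoxc6 was 14.7 CPM, 6.65-fold below. After every cell was thinned to 8000 UMIs, a Hoxc8 UMI was found in 67.3% of MEF cells and in 17.7% of iMPC cells (78.0% and 36.9% without thinning). Hoxc9, which sets thoracic motor neuron identity, was 11.4 CPM in iMPC, 5.50-fold lower. In cluster B, Hoxb6, Hoxb5 and Hoxb3 differed most. Hoxb6 was 21.6 CPM in MEF and 2.03 CPM in iMPC, 10.7-fold lower, Hoxb5 was 19.9 and 2.15 CPM, 9.28-fold lower, and Hoxb3 was 27.9 and 3.56 CPM, 7.84-fold lower. The ratio was smallest for Hoxb7, the neighbour of Hoxb6, and for Hoxb9, with Hoxb7 at 33.3 and 14.3 CPM (2.33-fold) and Hoxb9 at 76.2 and 24.3 CPM (3.14-fold). Hoxb2 (50.9 and 12.1 CPM), Hoxb4 (36.7 and 9.32 CPM) and Hoxb8 (43.7 and 11.9 CPM) lay between, at 4.21-, 3.94- and 3.67-fold lower, although Hoxb4 sits between Hoxb3 and Hoxb5. The exons of Hoxb2, Hoxb3 and Hoxb5 overlap antisense genes, and the strand setting of the counting was not given in the sources used here, so reads of the antisense genes may be among theirs. Hoxc5 was 5.47-fold lower, at 8.54 and 1.56 CPM, although its annotated exons share bases with Hoxc10 and reads of the pair may be split. Hoxd4, whose exons overlap Hoxd3 and an antisense gene, was 4.74-fold lower, at 10.4 and 2.19 CPM. Hoxa5, a gene of the neck and shoulder region, was 2.62-fold lower, at 5.62 and 2.14 CPM.

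The far posterior members differed more than the rest. Paralog groups 10 to 13, which pattern the lumbosacral axis and the outer limb, summed to 33.7 CPM in MEF and 2.08 CPM in iMPC, 16.2-fold lower (log2 −4.02, −4.16 to −3.88), whereas group 9 was 3.49-fold lower (147 and 42.2 CPM). They took 4.33% of all Hox UMIs in MEF and 1.10% in iMPC. Hoxc10 was 19.8 CPM in MEF and 0.984 CPM in iMPC, 20.1-fold lower (log2 −4.33, −4.53 to −4.13). Hoxa10, a gene of lumbar vertebrae, was 5.19 and 0.391 CPM, 13.3-fold lower. Hoxd11, which shapes the forearm together with Hoxa11, was 2.19 and 0.120 CPM, 18.2-fold lower. Hoxd13, the gene of the digits whose mutation causes synpolydactyly, was 2.05 CPM (1.80 to 2.33) in MEF and 0.0430 CPM (0.0206 to 0.0790) in iMPC, 47.7-fold lower.

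The posterior members under 2 CPM in both libraries went the same way where counts allowed a ratio, with 1 exception. Hoxa11 was 1.41 and 0.0559 CPM, Hoxa13 0.491 and 0.0344 CPM, and Hoxd10 1.22 and 0.176 CPM in MEF and iMPC. Hoxd12 had 51 UMIs in MEF and none in iMPC, at least 33.5-fold lower when 0 is replaced by 3 counts. Hoxc13, best known from hair follicles, had 93 UMIs in MEF and 2 in iMPC, a ratio with a log2 interval of −9.59 to −4.62. Hoxc11 had 10 and 2 UMIs and Hoxc12 had 0 in both libraries. The exception was Hoxb13, which lies apart from the rest of its cluster and marks the tail end and prostate, with 2 UMIs in MEF and 60 in iMPC (0.0169 and 0.258 CPM).

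**Figure D2:**
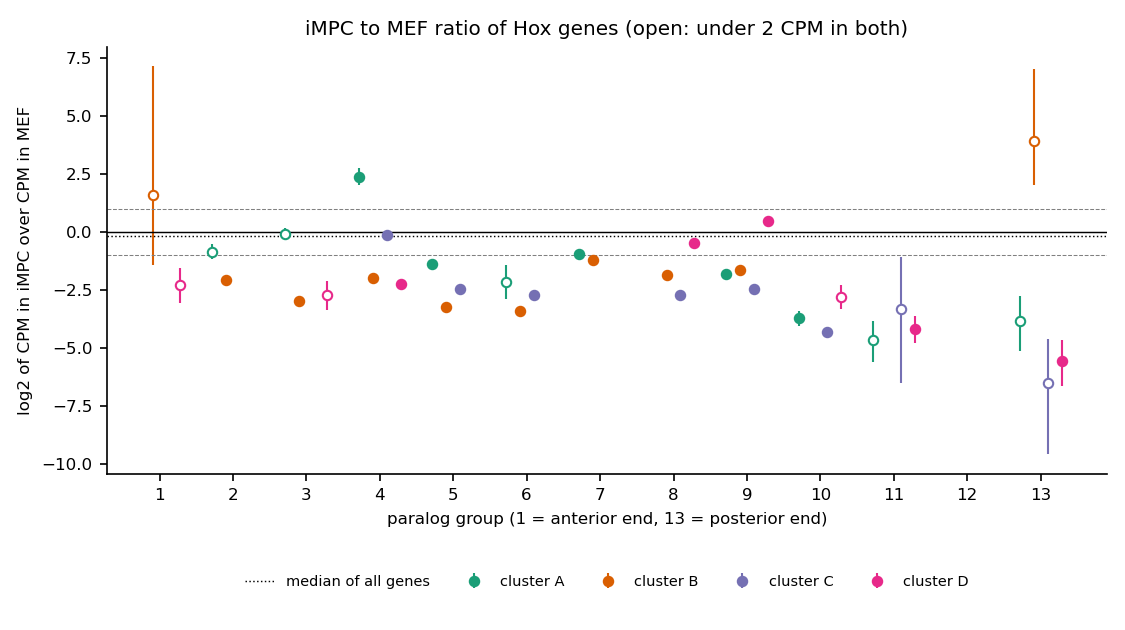
Log2 of CPM in iMPC over CPM in MEF for 38 Hox genes, by paralog group and coloured by cluster. Bars are exact 95% intervals, open symbols are members under 2 CPM in both libraries, the dotted line is the median of all genes (−0.17), the dashed lines are 2-fold, and members with 0 UMIs in a library are not drawn. The 4 lowest points (Hoxc13, Hoxd13, Hoxa11 and Hoxc10) all belong to groups 10 to 13, and Hoxa4 is the only filled point above the upper dashed line.

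Over all iMPC cells together, a few members kept or passed their MEF level. Hoxd8, a central gene of cluster D, was 25.4 CPM in MEF (24.5 to 26.3) and 18.4 CPM in iMPC (17.8 to 18.9), a log2 ratio of −0.47 (−0.53 to −0.40). Its neighbour Hoxd9 was 3.73 CPM and 5.16 CPM, a log2 ratio of 0.47 (0.31 to 0.63). Together the pair made up 3.75% of Hox UMIs in MEF and 12.5% in iMPC. Hoxd8 was thus the third most abundant member in iMPC, behind Hoxc8 and Hoxb9. The pair did not keep its MEF level in every class. In Pax7-positive and Dcn-high cells Hoxd8 was 8.93 and 9.78 CPM and Hoxd9 1.89 and 1.73 CPM, all below MEF. In Myog-high cells Hoxd8 was 26.7 CPM (25.2 to 28.2), an interval that overlaps that of MEF. Hoxd8 in Ckm-high cells (30.2 CPM) and Hoxd9 in Myog-high and Ckm-high cells (7.12 and 9.56 CPM) were above MEF. Hoxa4, a gene of the cervical region, was 0.593 CPM in MEF and 3.06 CPM in iMPC, 5.16-fold higher (log2 2.37, 2.01 to 2.74). Its exons overlap an antisense gene, as do those of Hoxa3, Hoxa7, Hoxa11 and Hoxd3, so their values are uncertain for the reason given for Hoxb2. Hoxc4 was 7.41 and 6.70 CPM (log2 −0.15, −0.27 to −0.02), and its ratio turned to 0.02 when the cells with the most UMIs and those in more than 1 class were left out. Hoxa7 was 14.1 and 7.32 CPM, 1.93-fold lower, and Hoxa9, a regulator of blood stem cells as well as of the axis, was 4.67 and 1.34 CPM, 3.49-fold lower.

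The remaining members were low in both libraries. Hoxa2, Hoxa3, Hoxa6, Hoxd1 and Hoxd3 were between 0.457 and 1.59 CPM in MEF and between 0.0945 and 1.5 CPM in iMPC. Hoxb1, a hindbrain gene, had 1 UMI in MEF and 6 in iMPC. In all, 14 members stayed below 2 CPM in both libraries and in each of the 4 classes.

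Most UMIs of Hoxa13, Hoxd11, Hoxd12 and Hoxd13 in MEF came from a small set of cells. The 117 MEF cells with 2 or more UMIs of Hoxa13, Hoxd11, Hoxd12 or Hoxd13 were 1.94% of the cells and held 92.3% of the UMIs of these genes. This set was formed after the levels had been seen, and its level of those 4 genes is fixed by the choice. They held 46.5% of the Hoxd10 UMIs, 15.7% of those of Hoxa11, 14.8% of those of Hoxa10 and 0.214% of those of Hoxc10, the most abundant member of groups 10 to 13. Levels of other members differed there too. Hoxd10 was 24.1 CPM (18.6 to 30.6) in these cells and 0.543 CPM in the 5879 cells without a UMI of the 4 genes, Hoxa10 was 32.7 and 4.33 CPM, Hoxa11 was 9.34 and 1.16 CPM, and Hoxa9 was 16.5 and 4.36 CPM. The trunk genes were low, with Hoxc8 at 21.6 CPM (16.5 to 27.7) against 191 CPM, Hoxc6 at 10.8 against 99.99 CPM, Hoxb9 at 14.4 against 77.9 CPM and Hoxc10 at 1.80 against 20.3 CPM. These cells thus had high late members of clusters A and D and low members of clusters B and C.

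Genes of limb identity outside the clusters, named after their values were seen, went both ways in the 117 cells. These cells held 24 of the 27 UMIs of Tbx4 and 47 of the 118 UMIs of Pitx1, a pair that specifies the hindlimb, and 24 of the 50 UMIs of Lmx1b, which specifies the dorsal limb. Lower there were En1, a gene of the ventral limb, at 16.9 CPM against 82.8 CPM in the cells without a UMI of the 4 genes, Shox2 at 19.0 against 42.8 CPM, Meis1 at 5.39 against 28.2 CPM and Tbx15 at 22.6 against 32.1 CPM. The interval of Tbx3 in the 117 cells (8.76 to 17.5 CPM) held its level in the others (15.9 CPM). The forelimb gene Tbx5 was 6.11 CPM (3.56 to 9.78) there and 4.73 CPM in the cells without a UMI of the 4 genes. The fibroblast collagen Col1a1 was 944 CPM against 2326 CPM, and 3 of the 117 cells (2.56%) held at least 5 Dcn UMIs against 36.8% of the cells without. Their median depth was 22931 UMIs against 18793, and the part of depth in these differences was not tested. Among iMPC cells only 8 of 9349 had 2 or more UMIs of the 4 genes. In these 8 cells Hoxa10 was 37.0 CPM (17.8 to 68.1) and Hoxc8 3.70 CPM (0.0937 to 20.6), from 10 and 1 UMIs.

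Pairs of members were then compared in the same cells at 8000 UMIs, as the number of cells with both over the number given by the product of the 2 shares. In MEF, Hoxd11 and Hoxd13 were together in 20 cells where the product gives 0.592, and Hoxa10 and Hoxa11 in 17 where it gives 1.62. Hoxd13 was found with Hoxb8 in no cell where the product gives 15.1, and with Hoxc8 in 2 where it gives 36.3. The trunk genes Hoxc6 and Hoxc8 were above the product, together in 2087 cells against 1826. Hoxb2 and Hoxd8 were close to it, in 296 cells against 298, and Hoxa5 and Hoxc8 were below it, in 106 against 155. Over the pairs whose product was at least 5 cells, 53 of 61 within a cluster and 133 of 295 between clusters exceeded it, with median ratios of 1.15 and 0.972. Pairs share members and cells, so these counts are a description.

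**Figure D3:**
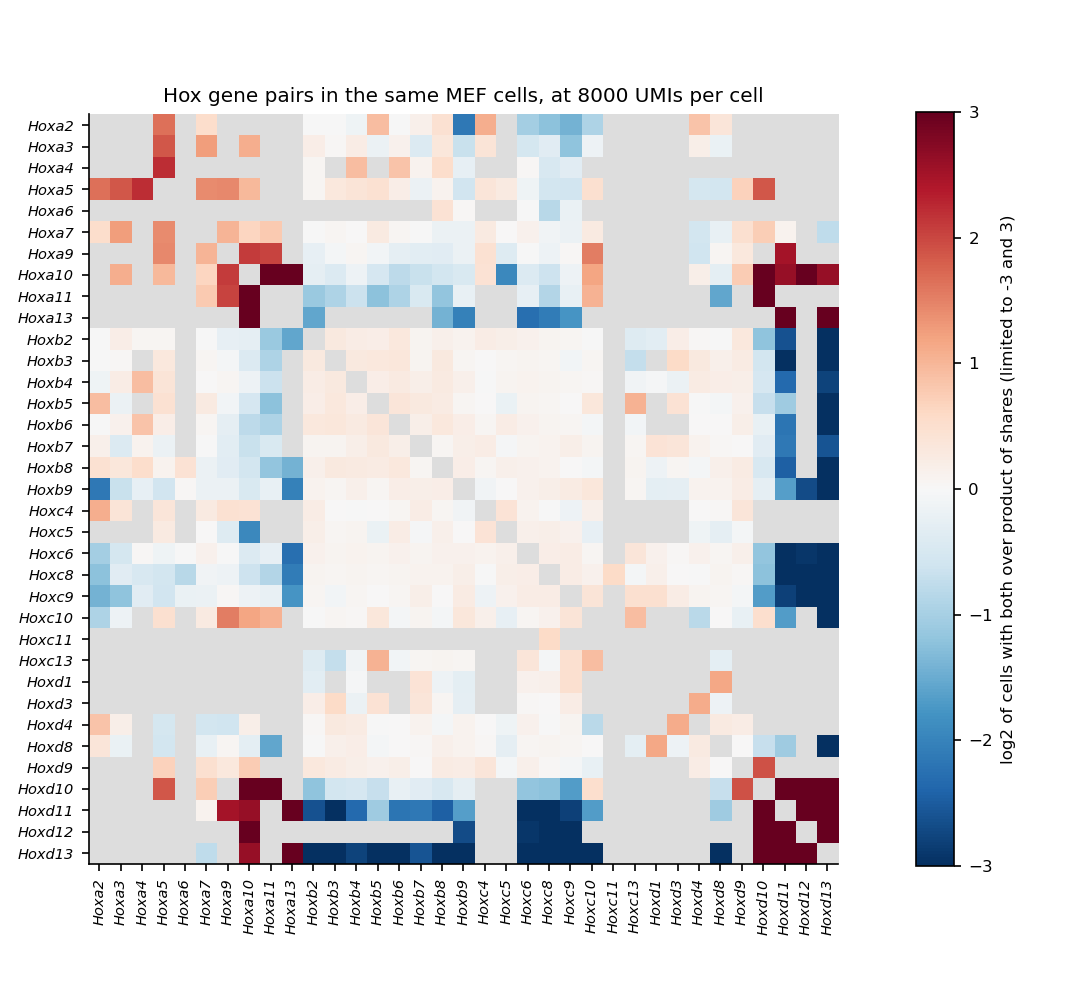
Log2 of the number of MEF cells holding UMIs of both genes over the number given by the product of the single shares, at 8000 UMIs in 5383 cells. Red is above and blue below the product, colours are limited to −3 and 3, and grey pairs had under 5 cells both in the count and in the product. Hoxa10, Hoxa11, Hoxa13 and Hoxd10 to Hoxd13 form a block of red that is mostly blue against clusters B and C. Hoxa10 follows this less, near the product with Hoxb4 (ratio 0.906) and above it with Hoxc4 (13 cells against 9.59).

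In iMPC the same comparison rested on fewer pairs. Within clusters 39 of 45 pairs exceeded the product, with a median ratio of 1.32, and between clusters 84 of 154, with a median of 1.06. Hoxc6 and Hoxc8 were together in 311 cells against 186, Hoxb9 and Hoxc9 in 213 against 139 and Hoxd8 and Hoxd9 in 60 against 32.1. Hoxd8 was with Hoxb9 in 130 cells against 175 and with Hoxc9 in 64 against 92.4, so cells with Hoxd8 held the trunk genes Hoxb9 and Hoxc9 less often than the product gives. In Pax7-positive cells alone, Hoxb9 and Hoxd8 were together in 16 cells against 25.5.

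Taken as pools, anterior members and all posterior members were detected in the same cells of both libraries about as often as their single shares give. At 8000 UMIs, 45.8% of MEF cells held an anterior UMI (44.4 to 47.1) and 67.5% a posterior UMI (66.2 to 68.7). Both were found in 30.9% (29.6 to 32.1), and the product of the shares is 30.9%. In iMPC, 14.97% held an anterior and 27.3% a posterior UMI, and both were found in 4.29% (3.89 to 4.72) against a product of 4.08%. Without thinning the cells with both were 56.9% of MEF and 19.7% of iMPC cells. With posterior narrowed to groups 10 to 13, anterior UMIs occurred with them in 6.67% of MEF cells against a product of 7.41%, and in 0.289% of iMPC cells against 0.218%.

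In the classes of iMPC the anterior and posterior pools gave the same picture. Cells with both were 4.27% of Pax7-positive cells (3.46 to 5.20), 2.96% of Myog-high (2.21 to 3.87), 2.60% of Ckm-high (1.72 to 3.77) and 6.51% of Dcn-high cells (4.60 to 8.90). The products of the shares were 4.44%, 2.79%, 2.44% and 6.10%, each inside its class's interval. An anterior UMI was in 16.2% of Pax7-positive and 9.74% of Ckm-high cells, while a posterior UMI was in 27.3% and 25.1%.

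The number of members per cell separated the libraries. At 8000 UMIs the median MEF cell held UMIs of 4 members and 2.43% held none (2.04 to 2.88), while the median iMPC cell held 1 member and 27.6% held none (26.6 to 28.5). No cell type known to lack all Hox genes was available as a background. Free RNA assumed at 10% of a cell's UMIs, with the makeup of iMPC barcodes of 1 to 100 UMIs, would by itself give a Hox UMI in 14.6% of cells, and in 9.05% with that of barcodes of 200 to 600 UMIs.

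Within iMPC the Hox sum was 219 CPM in Pax7-positive cells (215 to 224), 168 CPM in Myog-high (165 to 172), 147 CPM in Ckm-high (144 to 151) and 194 CPM in Dcn-high cells (187 to 202). Ckm-high and Pax7-positive cells differed in the makeup of their Hox UMIs. Among the 21 members that reached 2 CPM in either class, 10 were at least 2-fold lower in Ckm-high cells, against 33.6% of all genes. At least 2-fold higher were 4 of the 21, among them Hoxa9, Hoxd8 and Hoxd9, against 12.4% of all genes. The median log2 ratio was −0.88 over the 21 members and −0.52 over all 11459 genes tested, and scaling by the median of gene ratios moves each of these log2 ratios by 0.26.

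The higher members were led by the Hoxd8 and Hoxd9 pair. Hoxd8 was 8.93 CPM in Pax7-positive cells (8.07 to 9.86), 26.7 CPM in Myog-high (25.2 to 28.2), 30.2 CPM in Ckm-high (28.6 to 31.7) and 9.78 CPM in Dcn-high cells (8.10 to 11.7). It was 3.38-fold higher in Ckm-high than in Pax7-positive cells (log2 1.76, 1.59 to 1.92). Hoxd9 was 1.89, 7.12, 9.56 and 1.73 CPM in the same order, 5.07-fold higher (log2 2.34, 2.0 to 2.70). The intervals of the Myog-high and Ckm-high classes lay above those of the Pax7-positive and Dcn-high classes for both genes. Hoxd8 was the highest Hox gene of Myog-high and Ckm-high cells, in place of Hoxc8, and the pair took 4.93% of Hox UMIs in Pax7-positive cells and 26.9% in Ckm-high cells. Hoxa9 was 0.704, 1.86, 2.06 and 0.657 CPM over the 4 classes (log2 1.55 for Ckm-high over Pax7-positive, 0.95 to 2.18). Hoxa7, the neighbour of Hoxa9 among the members of cluster A, was 6.22, 9.31, 8.65 and 1.89 CPM. Hoxd10 had no UMI in Pax7-positive cells and 25 in Ckm-high cells, so the level in Ckm-high cells was at least 7.54-fold higher when 0 is replaced by 3 counts.

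The lower members came from clusters B and C and from Hoxa4. Hoxc8 was 38.2 CPM in Pax7-positive (36.4 to 40.03), 23.3 CPM in Myog-high, 14.9 CPM in Ckm-high (13.8 to 16.0) and 20.9 CPM in Dcn-high cells. Hoxb2 was 17.8, 7.01, 5.55 and 13.96 CPM in that order, and Hoxc4 was 9.81, 5.93, 2.49 and 3.204 CPM. Ckm-high over Pax7-positive log2 ratios were −1.36 for Hoxc8, −1.68 for Hoxb2 and −1.98 for Hoxc4. The other 7 (Hoxa4, Hoxb3, Hoxb4, Hoxb6, Hoxb8, Hoxc5 and Hoxc6) had log2 ratios from −1.89 to −1.07. Hoxb7, Hoxb9 and Hoxc9 stayed within 2-fold, at −0.69, −0.88 and −0.56. Hoxb5 (2.95 and 1.69 CPM), Hoxa5 (2.23 and 1.83 CPM) and Hoxd4 (2.32 and 1.87 CPM) did so too.

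These ratios are relative to all UMIs of a class, and the classes differed in depth, with a median of 18729.5 UMIs in Pax7-positive and 42148 in Ckm-high cells. Counted per cell, cluster B gave 2.12 UMIs in Pax7-positive and 2.30 in Ckm-high cells, and cluster C gave 1.70 and 1.71. Cluster D gave 0.268 and 1.99 UMIs per cell, and Hoxd8 alone 0.180 and 1.41. The CPM of clusters B and C was thus lower at nearly equal UMIs per cell, while cluster D was higher on both scales. Ckm-high cells were chosen by UMI counts, which favours deep cells, and the part of this choice was not tested.

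**Figure D4:**
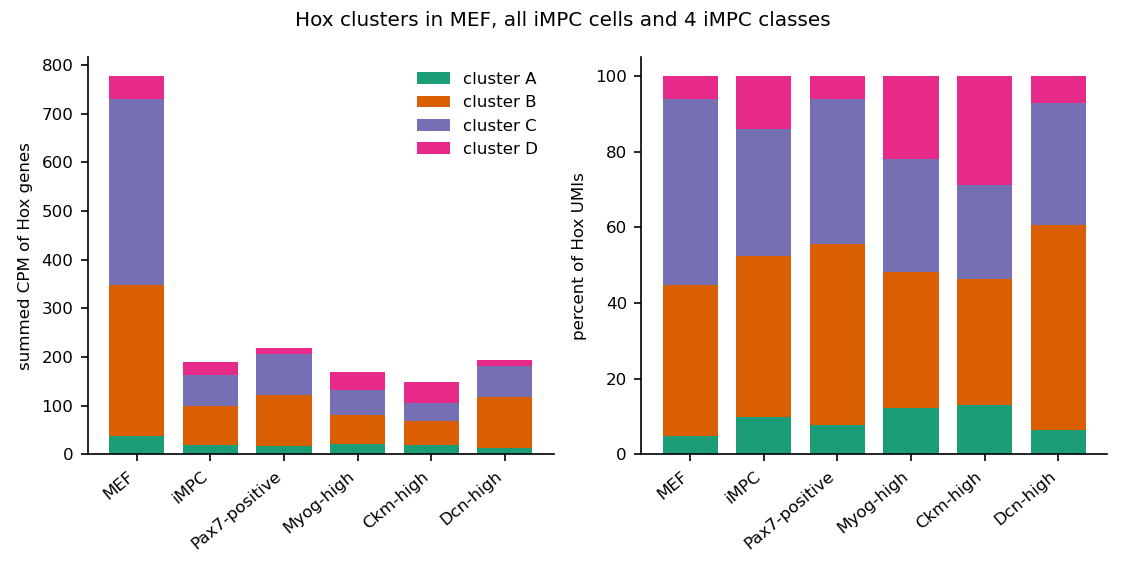
Summed CPM of the Hox clusters (left) and their percent of all Hox UMIs (right) in MEF, all iMPC cells and the 4 iMPC classes. Bars are sums over the cells of 1 library, with no replicates. Cluster D takes 6.06% of Hox UMIs in Pax7-positive and 28.8% in Ckm-high cells.

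In Dcn-high iMPC cells most members lay within 2-fold of Pax7-positive cells and below MEF. Among the 19 members that reached 2 CPM in either class, Hoxc10 alone was at least 2-fold higher in Dcn-high than in Pax7-positive cells (2.14 and 0.954 CPM, log2 1.16, 0.40 to 1.90), against 13.6% of all genes. Hoxa4, Hoxa7, Hoxc4 and Hoxc5 were at least 2-fold lower, 4 of 19 against 7.2% of all genes. The log2 intervals of Hoxa4 (−2.12 to −0.66, 19 UMIs in Dcn-high cells) and Hoxc5 (−2.48 to −0.44, 10 UMIs) reached less than 2-fold. Hoxa7 was 1.89 CPM in Dcn-high cells (1.20 to 2.84) and 6.22 CPM in Pax7-positive cells (5.51 to 7.01). The median log2 ratio of the 19 members was −0.12, and 0.04 over all 11590 genes. Groups 10 to 13 summed to 4.60 CPM in Dcn-high and 1.48 CPM in Pax7-positive cells (log2 1.64, 1.10 to 2.18). Among them Hoxa10 was 0.986 CPM from 12 UMIs against 0.0909 CPM from 4, and Hoxd11 had 7 UMIs against 1. The Hoxd11 count rests on few cells. Of the Dcn-high cells, 4 held 1 UMI of Hoxa13, Hoxd11, Hoxd12 or Hoxd13, and 1 held 2 or more.

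Against MEF, 22 of 23 members were at least 2-fold lower in Dcn-high iMPC cells, where 14.2% of all genes were. None was at least 2-fold higher, against 16.2% of all genes, and the exception, Hoxa5, was 3.86 CPM against 5.62 CPM. The Hox sum was 4.0-fold lower in Dcn-high cells than in MEF, close to the 4.12-fold of all iMPC cells. The 8 fibroblast markers summed to 5178 CPM in Dcn-high cells, against 6411 CPM in MEF. Dcn, whose level is fixed by the choice of the class, gave 1162 CPM of this sum, against 268 CPM in MEF. Of the 8, Col3a1, Dcn and Lum were at least 2-fold higher than in MEF. Col1a1 (508 and 2289 CPM) and Col1a2 (494 and 2097 CPM) were at least 2-fold lower. Hoxc8 was 8.93-fold lower (20.9 and 186 CPM), Hoxc10 was 9.27-fold lower and Hoxd13 had 1 UMI. Muscle markers summed to 2066 CPM in Dcn-high and 657 CPM in Pax7-positive cells, and their part in these ratios was not tested. These sums include Pax7 and Myog, by which the Pax7-positive class was chosen, so its sum is partly fixed by the choice. Myog was 152 CPM in Dcn-high and 0 in Pax7-positive cells, and Pax7 was 26.2 and 116 CPM.

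**Figure D5:**
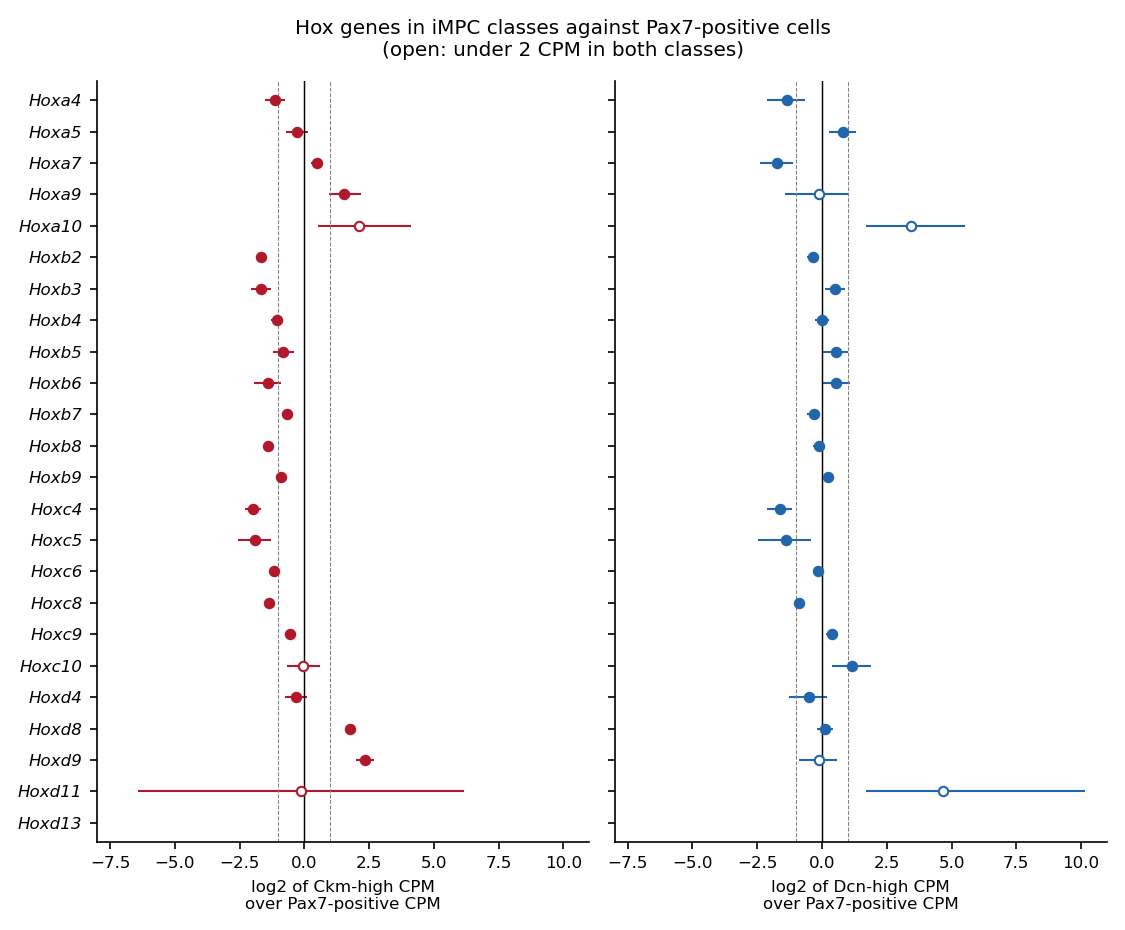
Log2 ratio of CPM to Pax7-positive cells in Ckm-high (left) and Dcn-high (right) iMPC cells for 24 members with at least 2 CPM in some group. Bars are exact 95% intervals, open symbols are members under 2 CPM in both classes, the dashed lines are 2-fold, and Hoxd13 has no point because it had 0 UMIs in Pax7-positive cells. Hoxd8 and Hoxd9 lie to the right of the 2-fold line in the left panel and at about 0 in the right panel.

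The cofactors that bind DNA together with Hox proteins were expressed in both libraries. All 9 genes of the Pbx, Meis and Pknox families passed 2 CPM in at least 1 library, and their sum was 263 CPM in MEF and 205 CPM in iMPC. Pknox2 was at least 2-fold higher in iMPC (0.483 and 5.68 CPM), and 3 genes were at least 2-fold lower, led by Meis3 (18.3 and 2.99 CPM) and Pbx4 (4.25 and 1.85 CPM). Over all genes 16.8% were higher and 22.5% lower by the same rule. From Pax7-positive to Ckm-high cells 5 of the 9 were at least 2-fold lower and 2 higher, against 33.6% and 12.4% of all genes.

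Of 15 genes of retinoic acid synthesis, breakdown and reception, the pathway that activates anterior Hox genes in the embryo, 11 could be compared. In iMPC, 5 were at least 2-fold higher and 2 at least 2-fold lower. For this count and those of the lists that follow, the shares over all genes are 16.8% higher and 22.5% lower. The receptor gene Rxrg was 0.0932 and 10.3 CPM in MEF and iMPC, and Aldh1a2, which makes retinoic acid, was 0.0508 and 2.19 CPM. Crabp1, which binds it in the cytoplasm, was 3341 and 253 CPM. Of 22 Polycomb and Trithorax genes, which hold Hox clusters off and on, 21 could be compared, 3 were higher in iMPC (Ezh2, Suz12 and Jarid2) and Cbx6 was lower. Ezh2 was 17.7 and 91.2 CPM. Of 9 genes flanking the clusters, 7 could be compared. Skap1 next to cluster B was 6.50 and 0.206 CPM in MEF and iMPC, Snx10 near cluster A was 16.3 and 8.09 CPM, and Cbx5 near cluster C was 54.4 and 123 CPM. Of 26 genes of axial or limb position, 11 could be compared, and 4 were higher and 4 lower in iMPC. Alx1 was 0.449 and 9.38 CPM. Tbx5 was 4.74 and 0.137 CPM and Alx4 was 5.94 and 1.55 CPM.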

How the data were processed

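Single-cell RNA was measured in 1 MEF and 1 iMPC library, with cells prepared by the 10x Genomics 3′ kit, version 3, per the labels' protocols. Values in the deposited matrices are unnormalised UMI counts, 1 matrix per library, and Cell Ranger is the writer named in the file headers. Cell Ranger 4.0, Seurat 3.2.3 and the build GRCm38.p6 are named in the submitters' processing notes, and the aligner, the annotation and the use of strand are not given in the sources used here. The MEF matrix lists 6113 barcodes, selected in a way the sources do not give, and the iMPC matrix lists 6794880. The treatment protocol text of the MEF sample repeats that of iMPC, and its own treatment label was used. The 26100 genes shared by both matrices were used, and 0.209% of the MEF UMIs lay on other genes.

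Cells had at most 20% mitochondrial UMIs and, in iMPC, at least 10% of the 99th percentile of UMIs of the top 10000 barcodes (8036). No doublet caller was run, and an alternative left out the deepest cells and those in more than 1 class. UMIs were summed over cells and divided by the total. A member was counted as different at 2-fold or more if it reached 2 CPM in either group, and the same rule over all genes gave the background. Intervals were exact at 95% (Poisson for levels, conditional for ratios, Clopper-Pearson for shares) and treat UMIs as independent molecules. For shares of cells, each cell was thinned to 8000 UMIs, which left out 660 MEF cells and no iMPC cell. Members reaching 2 CPM in any group were named with values, and of each other list at most 2 genes per direction. The code was checked on simulated counts. Python 3.11.15, numpy 2.4.6, scipy 1.17.1 and pandas 2.3.3 were used. The members and gene lists were chosen with earlier results of these data known. Noncoding genes of the clusters were not analysed here. Values of some single genes are not reported here, though the counts and sums include them. Alternatives covered the cell filters, scaling, free RNA, class thresholds, minimum level, thinning and the definition of anterior and posterior.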

Additional observations from a re-analysis of the deposited data

Results flagged for a closer look

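The iMPC matrix also lists 2636580 barcodes of 1 to 100 UMIs, too few for a cell and used in no comparison above. Their summed Hox level was 197 CPM (187 to 206), against 189 CPM in iMPC cells. For 10 members the lower bound of the level there exceeded the upper bound of the level in iMPC cells. The far posterior members were Hoxa10 at 1.14 CPM (10 UMIs), Hoxa11 at 0.457 CPM (4 UMIs), Hoxa13 at 0.913 CPM (8 UMIs), Hoxc10 at 3.196 CPM (28 UMIs), Hoxd10 at 0.913 CPM (8 UMIs), Hoxd11 at 1.14 CPM (10 UMIs) and Hoxd13 at 0.457 CPM (4 UMIs). In iMPC cells these 7 lay between 0.0344 and 0.984 CPM. The other members were Hoxb3 at 5.25 CPM, Hoxb5 at 3.77 CPM and Hoxb6 at 4.91 CPM, against 3.56, 2.15 and 2.03 CPM in iMPC cells. All 10 were higher in MEF than in iMPC cells. The share of all genes that meet the same rule on bounds is not given here, so the 10 cannot be read as particular to Hox genes. Col1a1, outside the members, was 264 CPM in the barcodes of 1 to 100 UMIs and 79.1 CPM in iMPC cells. In the 48846 barcodes of 200 to 600 UMIs the Hox sum was 119 CPM, and groups 10 to 13 were 1.55 CPM there against 8.33 CPM in the barcodes of 1 to 100 UMIs. Among the 25 members that reached 2 CPM in MEF or iMPC cells, subtracting the 200 to 600 UMI profile as free RNA changed no direction between iMPC and MEF, nor did subtracting that of 1 to 100 UMIs in the 24 that kept a value (all but Hoxd13).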

How the results depend on the processing

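No paired analysis was possible because each group held 1 library. No direction reversed among the counts and sums that answer a comparison. The log2 ratio of the Hox sum (−2.04) moved to −1.99 without the 5% of cells with the most UMIs and cells in more than 1 class, −1.90 without mitochondrial and ribosomal protein genes in the total, −1.90 under median-of-ratios scaling, −1.98 as a mean over cells, and −1.99 with free RNA of the 200 to 600 UMI barcodes subtracted. The 19 members lower in iMPC numbered 13 to 21 under the alternatives. Raising the minimum level to 5 and 10 CPM left 0 and 0 members higher in iMPC, 6 and 5 lower and 2 and 1 higher in Ckm-high cells, and 2 and 0 lower and 0 and 0 higher in Dcn-high than in Pax7-positive cells. The share of cells with anterior and posterior UMIs was 17.5% in MEF and 2.0% in iMPC at 5000 UMIs, 56.9% and 19.7% without thinning, 6.46% and 0.171% with at least 2 UMIs of each, 47.4% and 8.87% with anterior as groups 1 to 5, and 6.67% and 0.289% with posterior as groups 10 to 13. Of the values that answer a comparison, 78 were classed as the same and 25 as moved. Of the values of single members, 604 moved by less than their interval and 92 by more. Counts of 1 to 10 UMIs limit several members in iMPC classes, among them Hoxb1, Hoxc11, Hoxc13, Hoxd13 and Hoxd11. The same holds for Hoxc5 (10 UMIs) and Hoxa9 (8) in Dcn-high cells and Hoxa10 (4) in Pax7-positive cells. No setting replaces a second library per culture.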
